A study of Homo sapiens with 26 samples.

Results

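The 9 genes described here are the p53 family members TP63 and TP73 and 7 transcriptional targets that p53, p63 and p73 can share: MDM2, GDF15, SESN1, ZMAT3, BTG2, TP53I3 and FAS. They were taken by symbol, with earlier results of these data known. All 9 were among the 26485 gene symbols of each of 5 expression tables. RNA-seq had been performed in 3 established human esophageal squamous cell carcinoma (ESCC) lines, giving 26 libraries in 11 groups. KYSE180 cells received either a control siRNA (siCont, 3 libraries) or an siRNA against the bromodomain gene BRDT (siBRDT, 3 libraries), and in a separate experiment siCont (2 libraries) or an siRNA against TP63 (siTP63, 2 libraries). TE6 cells received siCont, siBRDT or siTP63 (2 libraries each), and KYSE150 cells siCont or siTP63 (2 libraries each). In the last experiment KYSE150 cells received a BRDT expression plasmid (BRDT-OE, 3 libraries) or a control vector (control, 3 libraries). Knockdown cells were collected 48 h after transfection. Every group is 1 transfected cell line without further genotypes, and the labels do not say whether replicates were separate cultures, so p-values measure only the spread between these libraries.

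Proteins of the p53 family share a DNA-binding domain and recognise the same kind of DNA element, a pair of adjacent repeat units with a conserved core. p53 itself responds to DNA damage and other stress, p73 acts in both stress and development, and p63, mainly as its N-terminally truncated form ΔNp63, maintains the basal layer of squamous epithelium such as that of the esophagus. Their shared targets feed back on p53 (MDM2), slow growth (BTG2, SESN1, ZMAT3), alter redox balance (TP53I3) or signal to other cells and to the death machinery (GDF15, FAS).

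The sequences that aim the TP63 knockdown at this family, and promoter stretches of the 9 genes that resemble the element the family binds, are shown first. The study lists a pair of TP63 siRNAs, without saying which was used for these libraries. Each matched TP63 and no other gene in GENCODE release 44 transcripts. The target of TP63 siRNA #5 lies in coding sequence of exon 13 of 14 (chr3:189890812-189890830, plus strand, hg38) and is present in 5 of 14 annotated TP63 transcripts, 2 from the upstream start sites and 3 from internal ones. The target of siRNA #8 lies in exon 7 of 14 (chr3:189867849-189867867, plus strand) and is present in 12 of 14 transcripts, 5 from upstream and 7 from internal start sites. Capitals mark the bases matched by the siRNA, with 5 flanking bases on either side.
TP63 siRNA #5 target: ctgttCATCATGTCTGGACTATTTcacga
TP63 siRNA #8 target: attcaCGACAGTCTTGTACAATTTcatgt

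A 20-letter p53-family response element was searched for in RefSeq promoters (GRCh38.p14, 250 bases before to 50 after each start, both strands), keeping the C and G of each core and allowing up to 3 other letters off. Of 19 promoter windows of the 9 genes, 6 held such an element, against 1.12% of 35116 promoters in the table. With at most 2 letters off there were 4 windows, against 0.285%. The matches are descriptions of sequence and not of binding, and the MDM2 element lies in 2 overlapping windows. The genes were picked as family members and known targets, so the comparison with all promoters is no test. The best elements are printed below with capitals for the element and up to 5 flanking bases, cut at the end of the window for GDF15. They belong to an internal TP73 start (chr1:3690591-3690620, plus strand, beginning 76 bases before the start), an internal MDM2 start (chr12:68808918-68808947, plus strand, 94 bases before), an internal FAS start (chr10:88991304-88991333, plus strand, 122 bases before), an internal SESN1 start (chr6:109009013-109009042, minus strand, 49 bases before) and GDF15 (chr19:18386181-18386207, plus strand, 28 bases after the start). The first 3 are 2 letters off and the last 2 are 3 letters off.
TP73: tcaccGGGCAAGCTGAGGCCTGCCCcggac
MDM2: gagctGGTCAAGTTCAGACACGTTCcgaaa
FAS: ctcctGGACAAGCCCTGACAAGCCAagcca
SESN1: cgtctGGACAAGTCTCCACAAGTCAgaaat
GDF15: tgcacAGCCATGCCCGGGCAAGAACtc
No window of TP63, ZMAT3, BTG2 or TP53I3 held an element within 3 letters, which says only that these letters are not in those windows.

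The deposited values are normalised read counts (each library's counts over its size factor), and whole reads could be recovered for 100% of values. Libraries held 7582089 to 19372441 reads. The targeted gene BRDT changed by -2.75 in KYSE180 and -2.23 in TE6 upon siBRDT and by 10.60 in BRDT-OE cells (log2 fold changes), while siTP63 changed it by -0.049 (adjusted p = 0.78) in KYSE180 and -0.091 (adjusted p = 0.67) in TE6. KYSE150 had few BRDT reads in that experiment, 41 and 7 with siCont and 0 and 8 with siTP63 (log2 fold change -2.81, adjusted p = 0.36). The 9 squamous markers examined were detected in all 3 lines, although KRT14 was low in KYSE150 (1.06 to 14.2 RPM, reads scaled to library size). KRT6A was low there too (4.06 to 23 RPM). The leukocyte marker PTPRC reached at most 0.357 RPM and the endothelial marker PECAM1 at most 0.725. The fibroblast marker COL1A1 was at 32.8 to 94.3 in KYSE180 and 19.7 to 25.8 in TE6. The neuroendocrine marker SYP was at 2.41 to 12.05 in KYSE180 and 3.5 to 9.89 in TE6. Of the 2 intestinal epithelial markers, CDX2 was at 18.8 to 31.1 in KYSE180 and 4.37 to 7.38 in TE6, and VIL1 at no more than 0.168 and 0.544. One TE6 library stood apart: siBRDT replicate 1 had reads for 20995 genes, against 16458 to 17569 in the other 5 TE6 libraries. In bulk RNA, fewer expressing cells and less RNA per cell cannot be told apart.

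Each comparison was fitted with limma over all genes that passed a filter on low values. A gene was called when its Benjamini-Hochberg adjusted p was under 0.05 and its log2 fold change was at least 0.5 in size, on log2(value + 1). All 9 genes passed the filter in all 6 comparisons. Upon BRDT knockdown 2 of the 9 were called in KYSE180 (1 up, 1 down), where 30.3% of all tested genes were called, and 3 in TE6 (1 up, 2 down), against 33.7% of all genes. Upon TP63 knockdown 4 were called in KYSE180, all down, against 49.3% of all genes, and 7 in TE6 (2 up, 5 down), against 38.9%. TP63, the gene that this siRNA targets, is among the called genes in both lines. In KYSE150 siTP63 cells none was called, nor was any of the 12335 genes tested there (0%) by limma. At an unadjusted p under 0.05 that comparison had 4 of the 9 genes, the targeted TP63 included, and 17.8% of all genes. On the recovered reads edgeR called no gene, while DESeq2 called 259 genes down and 202 up. Of the 9 genes 2 were among them, TP63 and TP73. BRDT-OE cells had 5 called (2 up, 3 down), against 26.5% of all genes. The share called among the 9 lay above that of all genes in TE6 siTP63 and BRDT-OE cells. In KYSE180 siBRDT, KYSE180 siTP63 and TE6 siBRDT cells it lay near that of all genes or just below. With 9 genes these shares are coarse, depend on the scaling and carry no test.

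**Figure D1:**
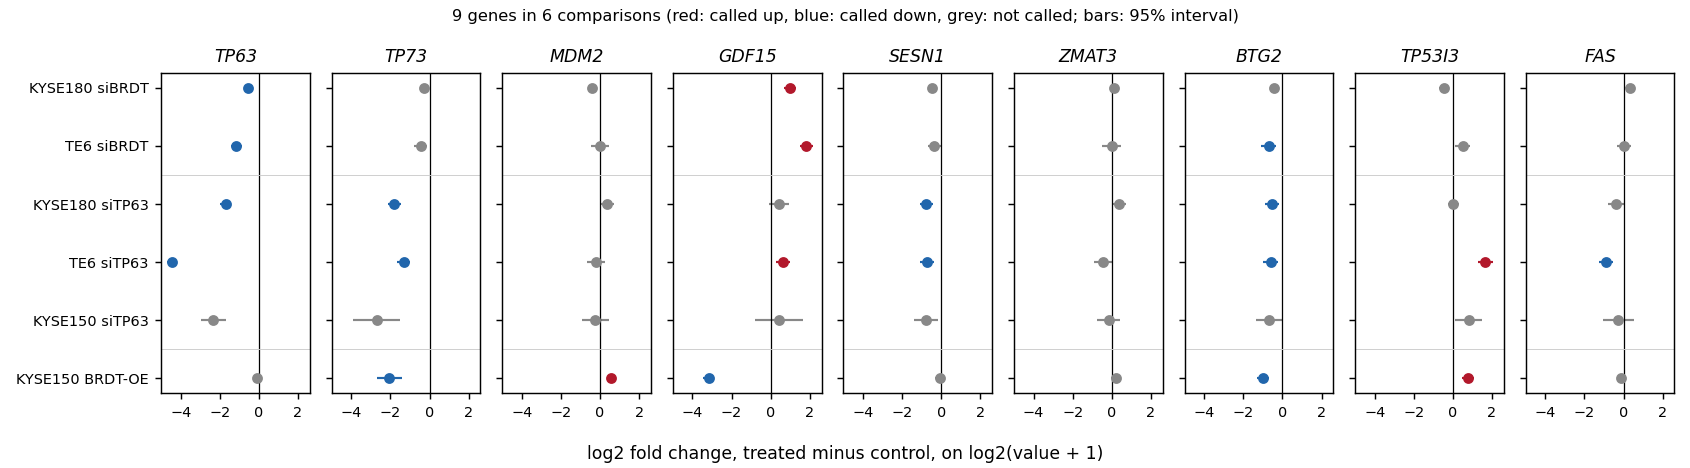
Log2 fold changes (treated minus control, horizontal axis) of the 9 genes in the 6 comparisons (rows), with 95% intervals; red and blue points passed both thresholds upward and downward, grey points did not. TP63 reaches the lowest value, -4.45 in TE6 siTP63 cells, and GDF15 was called in both directions, from -3.16 to 1.83.

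The size of a change depends on how libraries are scaled, most of all in the KYSE180 TP63 experiment. There the normalised values summed to 16936523 per siCont library and 11776663 per siTP63 library, and the 1000 most abundant control genes held 57.65% of the siCont and 45.33% of the siTP63 values. Scaling to library totals instead shifted the median of all genes by 0.52 on the log2 scale and moved the share of calls that were down from 52.1% to 17.8%. TP63 and TP73 were still called down on that scale, SESN1 and BTG2 were not called (-0.23 and -0.013), and MDM2, GDF15, ZMAT3 and TP53I3 were called up (0.89, 0.94, 0.91 and 0.55).

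TP63 (chr3:189631389-189897276, positions of this and the other genes from GENCODE release 44, hg38) was the most abundant of the 9 genes per kilobase of transcript in KYSE180 siCont cells of the BRDT experiment and in TE6 siCont cells, and its level differed widely between lines and between experiments. Control cells held 180 ± 9.99 RPKM (reads scaled to transcript length and library size, SD, n = 3) in the KYSE180 BRDT experiment, 48.2 ± 2.62 (SD, n = 2) in TE6, 33.6 ± 4.94 (SD, n = 2) in the KYSE180 TP63 experiment, 20.7 ± 2.53 (SD, n = 3) in the KYSE150 overexpression experiment and 9.08 ± 1.26 (SD, n = 2) in the KYSE150 knockdown experiment. No libraries of neighbouring groups in this order overlap. The KYSE180 siCont cells of 2 experiments therefore stood further apart from each other than those of the TP63 experiment did from TE6 siCont cells. Since each table was normalised alone, levels between experiments are set side by side without a test.

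Within experiments, both siTP63 and siBRDT lowered TP63 in KYSE180 and in TE6. In TE6, normalised TP63 read counts were 2596 and 2785 with siCont, 1282 and 1147 with siBRDT and 133.4 and 112.5 with siTP63. The 3 groups did not overlap. The fall was 21.8-fold upon siTP63, a log2 fold change of -4.45 ± 0.12 (SE, adjusted p = 1.3e-10), and 2.22-fold upon siBRDT, a log2 fold change of -1.15 ± 0.12 (SE, adjusted p = 2.0e-05). In KYSE180, siTP63 took TP63 from 2573 and 3035 to 793.8 and 924.7, a log2 fold change of -1.70 ± 0.14 (SE, adjusted p = 4.9e-10). siBRDT took it from 9399.6, 9933 and 10366 to 5924, 6724 and 7223, a log2 fold change of -0.58 ± 0.074 (SE, adjusted p = 8.8e-06). The groups were separate in both KYSE180 experiments, and the siBRDT fall lay near the fold threshold: scaled to library totals it was -0.50 and not called. In KYSE150, siTP63 took TP63 from 694.9 and 729.1 to 170.4 and 114.5, also without overlap, and the log2 fold change of -2.34 ± 0.26 (SE, adjusted p = 0.082) did not pass limma. The same difference was called by DESeq2 (adjusted p = 1.05e-08), not by edgeR (adjusted p = 0.085), and by limma when any single library was left out (adjusted p between 5.9e-05 and 0.0026). BRDT-OE cells held 1405, 1377 and 1458 against 1675, 1560.1 and 1344 in control cells, which overlap (log2 fold change -0.11, 95% interval -0.30 to 0.09).

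TP73 (chr1:3652516-3736201), the other family member in the tables, fell upon TP63 knockdown in KYSE180 and TE6 and in BRDT-OE cells. KYSE180 siCont cells of the TP63 experiment had normalised counts of 457.7 and 444.6 and siTP63 cells 135.7 and 121.5, a 3.49-fold fall (log2 fold change -1.80 ± 0.16 SE, adjusted p = 1.6e-09). In TE6 the counts were 290.1 and 271.3 with siCont, 205.0 and 201.9 with siBRDT and 125.4 and 99.1 with siTP63. These 3 groups did not overlap either. The siTP63 change of -1.32 ± 0.16 (SE, adjusted p = 3.0e-05) was called and the siBRDT change of -0.46 ± 0.16 (SE, adjusted p = 0.032) was under the fold threshold. In KYSE180, siBRDT gave 331.0, 314.9 and 328.2 against 384.7, 405.2 and 394.3, again separate and under the fold threshold (-0.28 ± 0.079 SE, adjusted p = 0.0067).

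KYSE150 cells held little TP73, 0.328 to 0.338 RPKM in the 2 control groups against 4.79 to 6.85 in TE6 and KYSE180. Its reads there were 21 and 20 with siCont and 5 and 2 with siTP63. The summed reads, 41 against 7, give a 6.91-fold lower rate (95% exact interval 3.07 to 18.3, counting error only), while limma gave a log2 fold change of -2.69 ± 0.49 (SE, adjusted p = 0.11). The control cells of the overexpression experiment had 32, 26 and 23 reads and BRDT-OE cells 7, 6 and 4, a 5.16-fold lower rate (95% exact interval 3.03 to 9.29). That change was called, at a log2 fold change of -2.05 ± 0.29 (SE, adjusted p = 0.00024). The annotation places WRAP73 and TP73-AS1 on the other strand of TP73, and without stated strand counting their reads cannot be told apart from those of TP73 in the overlaps. WRAP73 changed by -0.61 upon siTP63 in KYSE180, by 0.014 in TE6 and by 0.016 in BRDT-OE cells. TP73-AS1 had mean normalised counts of 165 with siCont and 185 with siTP63 in KYSE180 (log2 difference 0.17), and of 243 with siCont and 108 with siBRDT (-1.17), where TP73 changed by -0.28. In TE6 and KYSE150 its group means were under 0.55.

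**Figure D2:**
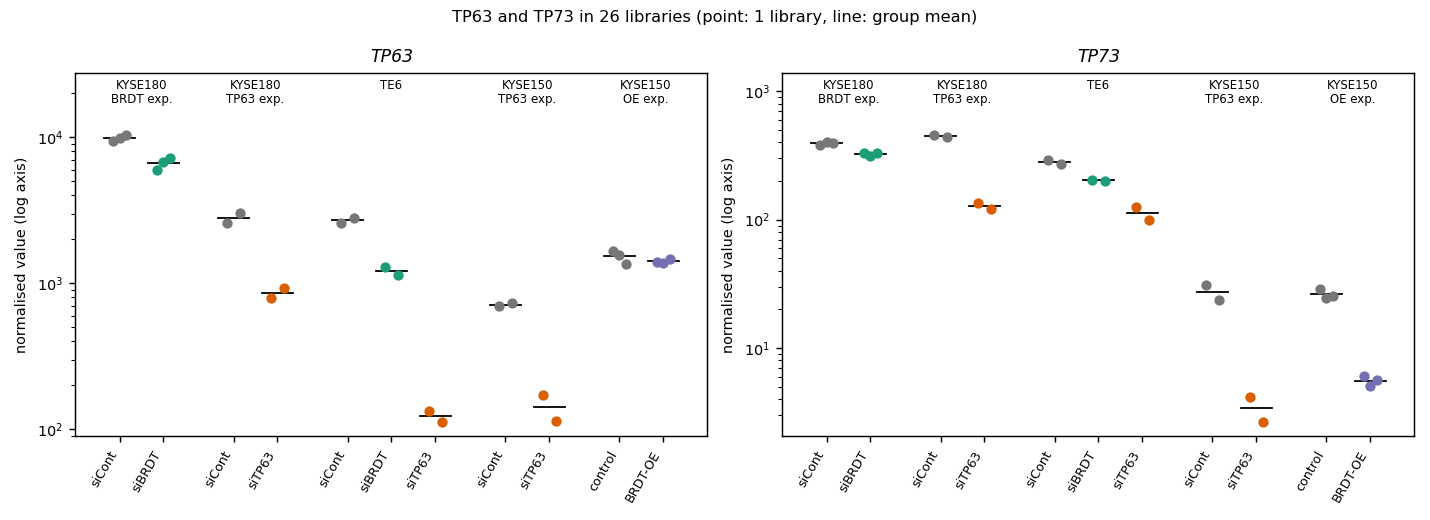
Normalised read counts of TP63 and TP73 (vertical log axes) in each of the 26 libraries by group; a point is 1 library and a line the group mean. In TE6 the siCont, siBRDT and siTP63 libraries lie in separate, descending steps for both genes, and TP73 in KYSE150 lies below 32 in every library.

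MDM2 (chr12:68808177-68845544), the ubiquitin ligase that degrades p53 and is itself induced by it, was called on the deposited values in BRDT-OE cells alone. Its normalised counts rose from 1549, 1589 and 1345 to 2120.1, 2277 and 2286, with every BRDT-OE library above every control. The rise was 1.49-fold, a log2 fold change of 0.58 ± 0.080 (SE, adjusted p = 0.00023), and was under the fold threshold on library totals (0.46). In KYSE180, siBRDT libraries (491.8, 538.4 and 524.9) all lay below siCont (713.0, 681.2 and 700.2), a change of -0.43 ± 0.071 (SE, adjusted p = 0.00012) under the fold threshold. siTP63 libraries of the same line (372.0 and 410.7) all lay above their siCont (306.7 and 298.8), at 0.37 ± 0.15 (SE, adjusted p = 0.044), also under it. On library totals that siTP63 rise was 0.89 and was called (adjusted p = 1.5e-05).

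TE6 had the highest MDM2 level of the 3 lines, 32.0 ± 2.95 RPKM (SD, n = 2) with siCont, against 2.39 to 13.4 in the other control groups. The 2 siBRDT libraries of TE6 gave 3710.4 and 1947, on either side of the siCont libraries (2536 and 2871). The higher of them was replicate 1, the library with reads for more genes. Without it the log2 fold change was -0.47 and without replicate 2 it was 0.46, so no direction can be given for MDM2 upon siBRDT in TE6. siTP63 gave 2120.5 and 2509.5 there, and KYSE150 siTP63 libraries (658.1 and 485.8) overlapped their controls (555.4 and 809.2).

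GDF15 (chr19:18374731-18389176), a secreted cytokine of the TGF-beta superfamily that responds to p53 and to cellular stress, rose upon BRDT knockdown in both lines and fell upon BRDT overexpression. TE6 counts were 109.0 and 91.3 with siCont, 338.8 and 375.1 with siBRDT and 163.2 and 148.0 with siTP63. siBRDT stood highest and the 3 groups did not overlap. The rise was 3.55-fold upon siBRDT (log2 fold change 1.83 ± 0.16 SE, adjusted p = 5.7e-06) and 1.55-fold upon siTP63 (log2 fold change 0.63 ± 0.16 SE, adjusted p = 0.0054). The second was not called without siCont replicate 2 (0.51, adjusted p = 0.079) or siTP63 replicate 1 (0.56, adjusted p = 0.064). In KYSE180, siBRDT libraries held 141.6, 192.2 and 132.3 against 83.3, 73.3 and 76.5, a 1.96-fold rise without overlap (log2 fold change 0.97 ± 0.15 SE, adjusted p = 4.4e-05).

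BRDT-OE cells gave the largest change of a target in these data, from 752.6, 652.7 and 745.4 normalised GDF15 counts in control cells to 92.9, 67.7 and 78.7. This was an 8.94-fold fall, a log2 fold change of -3.16 ± 0.13 (SE, adjusted p = 3.7e-07), with the BRDT-OE libraries far below all controls. The level in those control cells, 40.0 ± 2.86 RPKM (SD, n = 3), was the highest of the 5 control groups, which otherwise held 2.90 to 11.9. siTP63 was followed by 82.1 and 74.7 against 48.8 and 68.8 in KYSE180 (log2 fold change 0.43, 95% interval -0.07 to 0.92), not called here and called up on library totals (0.94). In KYSE150 the siCont libraries held 340.0 and 130.7 and overlapped the siTP63 libraries, which held 221.9 and 367.3 (95% interval of the log2 fold change -0.80 to 1.67).

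Genes of the ATF4 stress response and of the interferon response also changed in comparisons in which GDF15 did, and their part in the GDF15 values was not tested. Of 11 ATF4 response genes, 9 rose and none fell upon siBRDT in TE6 (median log2 fold change 1.21, all tested genes -0.039), 8 rose and 2 fell upon siTP63 in TE6 (median 0.89), and 4 rose and 1 fell upon siBRDT in KYSE180 (median 0.33). In BRDT-OE cells 9 fell and none rose (median -1.44), and in KYSE180 siTP63 cells 2 rose and 2 fell (median 0.062). On library totals, the scale on which GDF15 was called up there, that count was 7 up and 1 down (median 0.58), and with equal upper quartiles 4 up and 2 down (median 0.13). In KYSE150 siTP63 cells none was called (median 0.61). The shares of all genes called up and down were 15.6% and 18.1% in TE6 siBRDT and 18.3% and 20.6% in TE6 siTP63 cells. They were 14.5% and 15.8% in KYSE180 siBRDT, 23.6% and 25.7% in KYSE180 siTP63 and 10.5% and 16% in BRDT-OE cells. DDIT3, the stress transcription factor CHOP, changed by 1.21 (adjusted p = 3.0e-05) upon siBRDT in TE6 and by -2.08 (adjusted p = 5.6e-07) in BRDT-OE cells. In KYSE180 siTP63 cells it fell, at -0.78 (adjusted p = 0.00016), a call lost on library totals (-0.25).

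Of 16 interferon response genes, 15 could be tested in KYSE180 and TE6. Upon siTP63, 14 rose in KYSE180 (median log2 fold change 2.90) and 11 in TE6 (median 1.74), and upon siBRDT 14 rose in TE6 (median 2.25), with none called down. Of all genes, 23.6%, 18.3% and 15.6% were called up in these comparisons. KYSE180 siBRDT cells had 3 up and 2 down (median -0.060), where 14.5% of all genes were called up and 15.8% down. In KYSE150 siTP63 cells, where limma called no gene at all, none of 11 tested was called, at a median of 0.81. BRDT-OE cells had 9 down of 14 tested (median -1.04), where 16% of all genes were called down. ISG15, a ubiquitin-like interferon effector, changed by 4.43 (adjusted p = 1.5e-08) upon siBRDT in TE6 and by -0.06 (adjusted p = 0.61) in KYSE180.

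**Figure D3:**
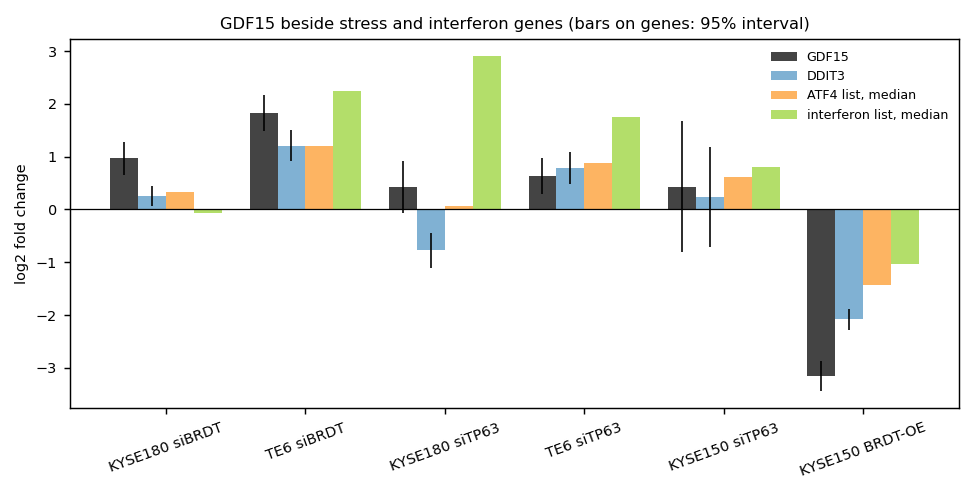
Log2 fold changes (vertical axis) of GDF15 and DDIT3 with 95% intervals, and the medians of the ATF4 and interferon response lists, in the 6 comparisons (horizontal axis). In BRDT-OE cells all 4 bars point down, GDF15 the furthest at -3.16, and in TE6 siBRDT cells all 4 point up.

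BTG2 (chr1:203305491-203309602), an antiproliferative protein that recruits mRNA deadenylases, had a log2 fold change below 0 in all 6 comparisons and was called down in 4. BRDT-OE cells held 91.1, 71.0 and 78.7 against 172.6, 147.1 and 166.6, a 2.01-fold fall without overlap (log2 fold change -1.01 ± 0.14 SE, adjusted p = 0.00022). In TE6, siCont libraries held 269.9 and 302.3, siBRDT libraries 145.7 and 211.4 and siTP63 libraries 192.4 and 182.0. Both knockdown groups lay below the controls and overlapped each other, with log2 fold changes of -0.70 ± 0.18 (SE, adjusted p = 0.0067) and -0.61 ± 0.18 (SE, adjusted p = 0.013). The siTP63 call was lost when any 1 of the 4 siCont and siTP63 libraries was left out, and the siBRDT call without siBRDT replicate 1 (-0.43) or siCont replicate 2 (adjusted p = 0.095). In KYSE180, siTP63 gave 207.8 and 216.1 against 258.0 and 366.5 (-0.53 ± 0.18 SE, adjusted p = 0.012). That call was lost without siCont replicate 2 (-0.28) and without either siTP63 library. It was also lost with equal upper quartiles (-0.46), on library totals (-0.013) and without the filter on low values (adjusted p = 0.062). siBRDT gave 306.6, 331.1 and 299.5 against 453.3, 412.8 and 408.0 in KYSE180, under the fold threshold (-0.44 ± 0.084 SE, adjusted p = 0.00037), and KYSE150 siTP63 cells 55.7 and 46.6 against 81.7 and 81.3 (-0.67 ± 0.28 SE, adjusted p = 0.29).

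SESN1 (chr6:108984309-109094846), a sestrin that restrains mTORC1, was called down upon TP63 knockdown in KYSE180 and TE6. The counts went from 248.5 and 298.8 to 151.9 and 170.8 in KYSE180 (-0.76 ± 0.17 SE, adjusted p = 0.00062) and from 287.5 and 230.0 to 157.9 and 150.9 in TE6 (-0.73 ± 0.16 SE, adjusted p = 0.0018). The groups were separate in both, and on library totals the KYSE180 change was -0.23 and not called. KYSE150 siTP63 cells held 94.7 and 78.5 against 145.5 and 154.3, also separate, with a fold change of like size that did not pass the test (-0.79 ± 0.25 SE, adjusted p = 0.2). Upon siBRDT, SESN1 changed by -0.48 ± 0.087 (SE, adjusted p = 0.00023) in KYSE180, under the fold threshold, and by -0.37 ± 0.16 (SE, adjusted p = 0.073) in TE6. BRDT-OE and control libraries overlapped (log2 fold change -0.084, 95% interval -0.34 to 0.18).

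ZMAT3 (chr3:178960121-179072215), a zinc-finger RNA-binding protein, was not called in any of the 6 comparisons on the deposited values. Its log2 fold changes ran from -0.44 in TE6 siTP63 cells to 0.39 in KYSE180 siTP63 cells. The KYSE180 siTP63 change was 0.91 and called up on library totals, and it was 0.60 without siCont replicate 2. In TE6 its counts were 139.8 and 182.6 with siCont and 115.4 and 119.9 with siTP63, and in KYSE180 they were 201.3 and 270.0 with siCont and 295.3 and 315.4 with siTP63. The siTP63 libraries were thus below all controls in one line and above all controls in the other. siBRDT libraries of TE6 (205.0 and 125.4) spanned the controls, with replicate 1 the higher, as for MDM2.

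TP53I3 (chr2:24077433-24085861), a quinone oxidoreductase also called PIG3, rose upon siTP63 in TE6 and in BRDT-OE cells. TE6 counts were 145.1 and 126.6 with siCont, 173.7 and 211.4 with siBRDT and 501.6 and 362.5 with siTP63, in 3 groups without overlap. The siTP63 rise was 3.13-fold (log2 fold change 1.65 ± 0.18 SE, adjusted p = 1.2e-05), and the siBRDT change of 0.50 ± 0.18 (SE, adjusted p = 0.038) lay just under the fold threshold. With equal upper quartiles it was 0.60 and with edgeR 0.51, both called. In BRDT-OE cells counts rose from 78.6, 97.2 and 103.0 to 169.4, 151.4 and 150.5 (log2 fold change 0.76 ± 0.14 SE, adjusted p = 0.0012). KYSE150 siTP63 libraries held 228.5 and 351.4 against 170.8 and 151.9, all above their controls, at 0.81 ± 0.28 (SE, adjusted p = 0.23).

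KYSE180 siCont cells in the TP63 experiment held 1282 and 1131 TP53I3 counts and siTP63 cells 1317 and 1139, which overlap. These groups had the highest TP53I3 levels of the series. In RPKM, which uses library size, they were separate, 41.3 to 44.8 with siCont and 60.1 to 66.0 with siTP63 (n = 2 each). On library totals TP53I3 was called up there (log2 fold change 0.55, adjusted p = 0.00086). siBRDT libraries of KYSE180 (241.6, 239.7 and 200.2) all lay below siCont (347.9, 311.5 and 293.2), at -0.48 ± 0.10 (SE, adjusted p = 0.00094), under the fold threshold. FAM228B overlaps TP53I3 on the other strand, and its mean normalised count went from 30.9 to 83.7 in TE6 siTP63 cells, while that of TP53I3 went from 136 to 432. Its part in the TP53I3 value was not tested.

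FAS (chr10:88953813-89029605), the death receptor, was called down in TE6 siTP63 cells alone, from 157.4 and 194.7 to 90.9 and 96.2 without overlap (-0.90 ± 0.17 SE, adjusted p = 0.00077). siBRDT left TE6 libraries at 178.0 and 179.2, within the siCont range. In KYSE180 the siBRDT libraries (206.5, 186.4 and 187.2) all lay above siCont (150.7, 169.4 and 142.2), at 0.33 ± 0.11 (SE, adjusted p = 0.017), under the fold threshold, and the siTP63 libraries (101.2 and 122.3) all below siCont (138.4 and 151.9), at -0.38 ± 0.19 (SE, adjusted p = 0.096). The KYSE180 siTP63 value changed sign on library totals (0.14). ACTA2 overlaps FAS on the other strand and STAMBPL1 on the same one, and in TE6 siTP63 cells they changed by 0.17 and -0.40.

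**Figure D4:**
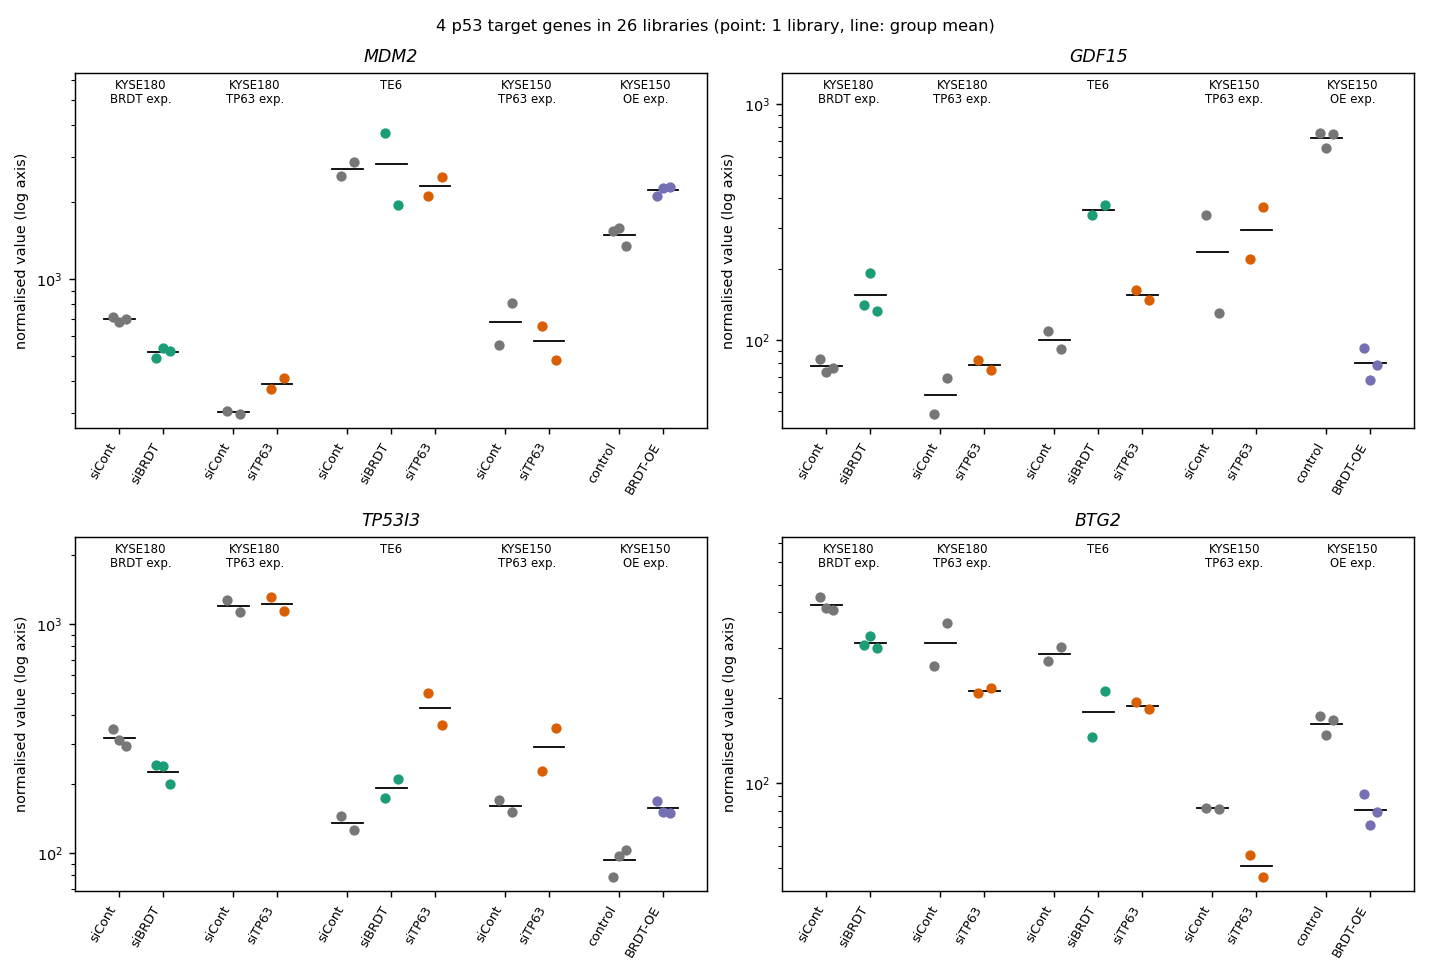
Normalised read counts (vertical log axes) of MDM2, GDF15, TP53I3 and BTG2 in each of the 26 libraries by group; a point is 1 library and a line the group mean. The 2 TE6 siBRDT libraries lie apart for MDM2 (3710.4 and 1947), and the 3 BRDT-OE libraries lie far below their controls for GDF15.

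In order to ask whether the same knockdown moved a gene differently in different lines, differences of log2 fold changes were fitted with limma over all genes tested in both comparisons. For TP63 knockdown, 3 of the 9 genes differed between TE6 and KYSE180 (adjusted p under 0.05), where 55% of all genes did. TP63 itself fell further in TE6, a difference of -2.74 ± 0.19 (SE, adjusted p = 4.0e-08). TP53I3 rose more in TE6, a difference of 1.62 ± 0.23 (SE, adjusted p = 1.2e-05). ZMAT3, not called in either line on the deposited values, had a lower change in TE6, a difference of -0.83 ± 0.30 (SE, adjusted p = 0.026). MDM2 differed by -0.59 ± 0.28 (SE, adjusted p = 0.077), with a 95% interval of -1.17 to -0.01, and SESN1 by 0.023 ± 0.23 (SE, adjusted p = 0.94), with an interval of -0.47 to 0.51. On library totals 5 of the 9 differed. KYSE150 differed from KYSE180 in none of the 9 (1.62% of all genes at adjusted p under 0.05, and 1 of the 9, TP53I3, at an unadjusted p under 0.05). It differed from TE6 in TP63 alone (3.86% of all genes), which fell less in KYSE150, a difference of 2.10 ± 0.28 (SE, adjusted p = 0.0038).

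For BRDT knockdown, TP63, GDF15 and TP53I3 differed between TE6 and KYSE180, where 41.9% of all genes did. TP63 fell further in TE6, a difference of -0.57 ± 0.14 (SE, adjusted p = 0.0031), and GDF15 rose more, a difference of 0.85 ± 0.23 (SE, adjusted p = 0.0057). TP53I3 was higher in TE6 and lower in KYSE180 than in the controls, a difference of 0.98 ± 0.21 (SE, adjusted p = 0.0011). Leaving out TE6 siBRDT replicate 2 raised the count from 3 to 5.

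The knockdowns of BRDT and TP63 could be compared directly in TE6, where they share a table and its siCont libraries. Of the 9 genes 5 differed, where 39.2% of all genes did, and without siBRDT replicate 2 there were 8. siTP63 cells had less TP63 (-3.30 ± 0.12 SE, adjusted p = 4.3e-09), TP73 (-0.86 ± 0.16 SE, adjusted p = 0.0011), GDF15 (-1.19 ± 0.16 SE, adjusted p = 0.00011) and FAS (-0.93 ± 0.17 SE, adjusted p = 0.00098) than siBRDT cells, and more TP53I3 (1.15 ± 0.18 SE, adjusted p = 0.00033). BTG2 differed by 0.092 ± 0.18 (SE, adjusted p = 0.72), with a 95% interval of -0.30 to 0.48.

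To set the 7 targets beside the wider p53 program, a list of 50 other p53 target genes in 5 roles was counted in the same fits, of which 44 to 46 were tested. By role, DNA repair genes had 2 of 5 down in KYSE180 siBRDT cells, 3 of 5 down and 1 up in TE6 siTP63 cells, and 1 of 5 down in TE6 siBRDT and BRDT-OE cells. In KYSE180 siTP63 cells they had 3 down and 1 up, which became 1 down and 2 up on library totals and 1 down and 1 up with equal upper quartiles. Cell death genes had 4 of 15 down in KYSE180 siBRDT cells and 5 up and 2 down of 15 in TE6 siBRDT cells. Upon siTP63 they had 8 down and 2 up of 15 in KYSE180 and 6 down and 2 up of 15 in TE6, and in BRDT-OE cells 3 each way of 14. The shares of all genes called in each direction, given below with the whole list, apply to these counts too. In KYSE180 siBRDT cells 1 of 46 rose and 11 fell, where 14.5% of all genes were called up and 15.8% down. The median log2 fold change was -0.13 (all genes -0.0052). GLS2, a glutaminase, rose from 196 ± 26.6 to 387 ± 46.3 (SD, n = 3, log2 fold change 0.98, adjusted p = 4.1e-06). CDKN1A, the cell cycle inhibitor p21, fell from 544 ± 2.16 to 218 ± 14.5 (SD, n = 3, log2 fold change -1.32, adjusted p = 7.8e-09), as did TNFAIP8, with a log2 fold change of -1.20 (adjusted p = 5.4e-07), and RRM2B, a p53-inducible ribonucleotide reductase subunit, with -1.10 (adjusted p = 6.3e-08).

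In TE6 siBRDT cells 10 of 45 rose and 6 fell (15.6% and 18.1% of all genes), with a median of 0.021 (all genes -0.039). The cell death gene PMAIP1 (NOXA) rose from 164 ± 21.0 to 408 ± 44.4 (SD, n = 2, log2 fold change 1.31, adjusted p = 6.7e-05), and another cell death gene, BAX, rose with a log2 fold change of 0.87 (adjusted p = 0.00012). SFN (14-3-3 sigma) rose as well, with 0.83 (adjusted p = 7.7e-05). RRM2B fell from 508 ± 63.4 to 142 ± 50.7 (SD, n = 2, log2 fold change -1.87, adjusted p = 2.3e-05). SERPINB5 (maspin) and TGFA, a ligand of the EGF receptor, also fell, with log2 fold changes of -0.78 (adjusted p = 0.0002) and -0.62 (adjusted p = 0.015). RRM2B was thus called down in both lines upon siBRDT.

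Upon TP63 knockdown 8 of 46 rose and 18 fell in KYSE180 (23.6% and 25.7% of all genes), with a median of -0.23 (all genes 0.00064). On library totals the count was 20 up and 11 down with a median of 0.28. SFN fell from 11300.0 ± 1546 to 2719 ± 775 (SD, n = 2, log2 fold change -2.08, adjusted p = 3.6e-10). FDXR, a mitochondrial ferredoxin reductase, and EI24 also fell, with log2 fold changes of -1.99 (adjusted p = 2.7e-10) and -1.61 (adjusted p = 8.8e-10). SERPINB5 rose from 840.5 ± 45.9 to 1849 ± 225 (SD, n = 2, log2 fold change 1.13, adjusted p = 2.7e-07). BBC3 (PUMA), a cell death gene, and the cytokine CSF1 also rose, with log2 fold changes of 0.88 (adjusted p = 5.2e-05) and 0.68 (adjusted p = 0.0024). In TE6 6 of 45 rose and 17 fell (18.3% and 20.6% of all genes), with a median of -0.010 (all genes -0.011). TNFAIP8 fell from 359 ± 7.75 to 77.7 ± 15.8 (SD, n = 2, log2 fold change -2.21, adjusted p = 8.0e-06), and GLS2 and EI24 fell with log2 fold changes of -1.76 (adjusted p = 9.6e-06) and -1.33 (adjusted p = 5.6e-07). BBC3 rose from 64.1 ± 13.8 to 184 ± 15.5 (SD, n = 2, log2 fold change 1.52, adjusted p = 6.7e-05), and the signalling adaptor TRAF4 rose with 0.74 (adjusted p = 8.4e-05) on the log2 scale. In KYSE150 siTP63 cells none of 44 was called by limma, 11 had an unadjusted p under 0.05, and DESeq2 called 4 down and 1 up.

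In BRDT-OE cells 5 of 45 rose and 9 fell (10.5% and 16% of all genes), with a median of -0.075 (all genes 0.017). BBC3 fell from 434 ± 69.0 to 119 ± 1.98 (SD, n = 3, log2 fold change -1.85, adjusted p = 4.6e-06), and CSF1 and PMAIP1 fell with log2 fold changes of -1.43 (adjusted p = 6.3e-06) and -1.12 (adjusted p = 2.5e-05). TIGAR, a regulator of glycolysis, rose from 496 ± 40.5 to 917 ± 20.3 (SD, n = 3, log2 fold change 0.89, adjusted p = 2.2e-05), and the nuclease gene AEN and TGFA rose with 0.79 (adjusted p = 3.6e-05) and 0.76 (adjusted p = 2.2e-05). In KYSE180 siBRDT cells PMAIP1 and TGFA changed by -0.42 (adjusted p = 0.0062) and 0.31 (adjusted p = 0.0066), under the fold threshold and opposite in sign to TE6 siBRDT cells.

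**Figure D5:**
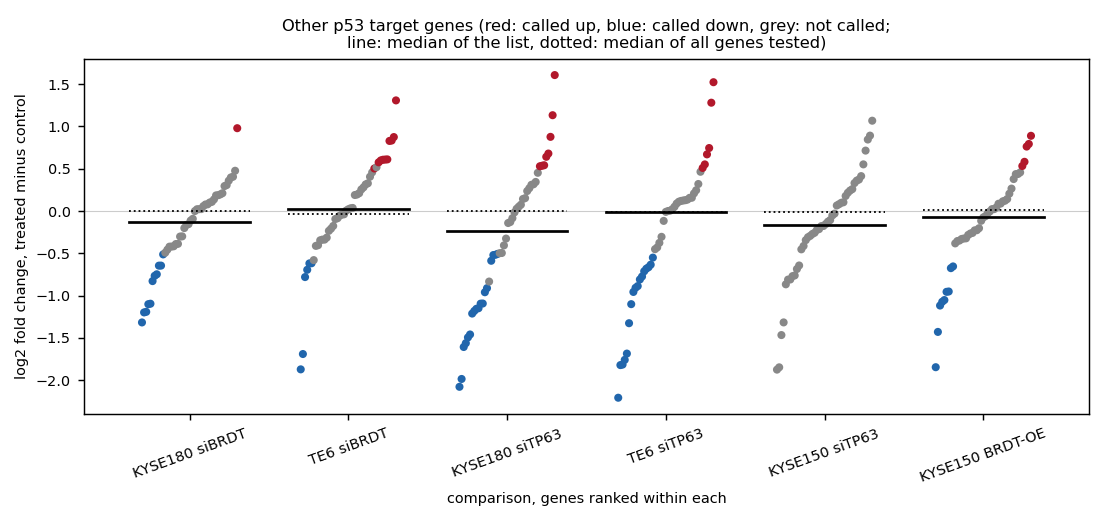
Log2 fold changes (vertical axis) of the other p53 target genes tested, ranked within each comparison (horizontal axis); red and blue points were called up and down, solid lines are list medians and dotted lines the medians of all genes tested. The list medians lie between -0.23 (KYSE180 siTP63) and 0.021 (TE6 siBRDT), with called genes in both directions in each comparison that had calls.

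Of 13 regulators of p53 family proteins, 6 rose and 2 fell in KYSE180 siTP63 cells, 1 rose and 5 fell in TE6 siBRDT cells, 2 rose and 5 fell in TE6 siTP63 cells, 1 fell in KYSE180 siBRDT cells and 1 moved each way in BRDT-OE cells. The shares of all genes called up and down were 23.6% and 25.7% in KYSE180 siTP63, 15.6% and 18.1% in TE6 siBRDT, 18.3% and 20.6% in TE6 siTP63, 14.5% and 15.8% in KYSE180 siBRDT and 10.5% and 16% in BRDT-OE cells. In KYSE150 siTP63 cells none was called. On library totals the KYSE180 siTP63 count was 9 up and 2 down. CHEK2, a DNA damage checkpoint kinase, fell (log2 fold changes in parentheses here and below) in KYSE180 siTP63 (-1.86, adjusted p = 5.1e-10), TE6 siTP63 (-1.41, adjusted p = 5.9e-06) and BRDT-OE cells (-0.76, adjusted p = 0.00017). WWP1, a ubiquitin ligase of the p63 protein, fell upon siBRDT in KYSE180 (-1.42, adjusted p = 4.5e-09) and TE6 (-0.77, adjusted p = 0.00017) and upon siTP63 in TE6 (-0.68, adjusted p = 0.00028), and rose upon siTP63 in KYSE180 (0.56, adjusted p = 0.0027). ITCH, another ligase of p63 and p73, fell in TE6 upon siBRDT (-0.61, adjusted p = 0.0012) and siTP63 (-0.70, adjusted p = 0.00038). ATM, the apical damage kinase, fell in TE6 with siBRDT (-1.05, adjusted p = 0.00025) and siTP63 (-1.07, adjusted p = 0.00016) and rose in KYSE180 with siTP63 (0.61, adjusted p = 0.003). HIPK2, a p53 kinase, rose in KYSE180 siTP63 (1.00, adjusted p = 4.2e-05) and BRDT-OE cells (0.90, adjusted p = 0.0037), and ABL1, a kinase of p73, rose in KYSE180 siTP63 cells (0.78, adjusted p = 4.6e-05). Both were called down in TE6 siBRDT cells, HIPK2 at -0.57 (adjusted p = 0.026) and ABL1 at -0.50 (adjusted p = 0.0082), and neither call held with equal upper quartiles.

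The genes most alike to 3 of the members were sought over the 26 libraries, after subtracting the control mean of each experiment from log2(value + 1), among about 8307 genes with a mean of at least 100 in every experiment. The patterns nearest TP63 were those of MASTL (Pearson r = 0.97), CENPF (0.97) and the basal keratin KRT14 (0.97). The nearest to MDM2 were TPD52 (0.89), MAPK1IP1L (0.89) and SLC12A2 (0.88), and to GDF15 CDK18 (0.95), MITD1 (0.94) and ASNS (0.94), the asparagine synthetase of the ATF4 list. Among the members themselves, r was 0.81 for TP63 with SESN1, 0.76 for TP63 with FAS, -0.72 for TP63 with TP53I3 and -0.69 for MDM2 with GDF15. These values describe 26 libraries that fall into a few groups sharing controls, and carry no test.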

How the data were processed

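RNA-seq (TruSeq RNA V2) was measured in 26 libraries of 11 groups. Per the labels and the submitters' processing notes, the pipeline of the authors used the hg38 build, STAR 2.6.0 as aligner and HTSeq 0.11.2 as counter, and they deposited DESeq2 (1.24.0) normalised signal, read counts over a size factor, separately for 5 experiments. The strand setting and annotation of the counting are not given in the sources used here. Which TP63 siRNA was used, and which of the study's sequencing centres read each library, are not stated either.

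From these values, log2(value + 1) was tested with limma 3.58.1 (trended empirical Bayes, mean value of at least 10, R 4.3.3), with the 3 TE6 groups in 1 fit. Calls needed a log2 fold change of 0.5 or more in size with an adjusted p under 0.05, and differences between lines an adjusted p under 0.05 only. Whole reads were recovered (100% of values within 0.001 of a whole number; 3 reads are worth 0.155 to 0.396 RPM) and tested with edgeR 4.0.16 and DESeq2 1.42.0 as alternatives. Other alternatives were a pseudocount of 0.1, no filter, equal upper quartiles, a replicate block and leaving out each library. A crossed block and scaling to library totals were chosen after seeing the data. The scripts were tested on simulated data.

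All 9 members are named. From the 50 other p53 targets, the 3 largest rises and falls per comparison were named among called genes with a mean of at least 100 and separate groups. Regulators were named when called in 2 or more comparisons. The members and lists were chosen with earlier results of these data known. Intervals on reads cover counting error only. Some genes that these rules would name are not reported here.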

Additional observations from a re-analysis of the deposited data

Results flagged for a closer look

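Some effects of the same knockdown differed between cell lines by a limma test of the difference itself (adjusted p under 0.05), and their causes were not tested. For TP63 knockdown, the log2 fold change in TE6 minus that in KYSE180 was -2.741 for TP63, -0.825 for ZMAT3 and 1.622 for TP53I3. ZMAT3 was called in neither line on the deposited values, with siTP63 libraries below all controls in TE6 and above all controls in KYSE180. The log2 fold change of TP63 in KYSE150 minus that in TE6 was 2.104. For BRDT knockdown, TE6 minus KYSE180 was -0.565 for TP63, 0.854 for GDF15 and 0.98 for TP53I3. TP53I3 lay above all controls in TE6 and below all controls in KYSE180 upon siBRDT, with a change just under the fold threshold in each line. Of all genes, 55%, 3.86% and 41.9% differed in these 3 contrasts.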

How the results depend on the processing

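The cause of the changes named here was not tested. Scaling to library totals moved the members called from 2 to 1 in KYSE180 siBRDT cells and the members that differed between TE6 and KYSE180 upon siTP63 from 3 to 5. It moved the other p53 targets in KYSE180 siTP63 cells from 18 to 11 down and from 8 to 20 up, and those up in BRDT-OE cells from 5 to 3. The share of calls that were down moved from 52.1% to 40.3% (KYSE180 siBRDT), 52.1% to 17.8% (KYSE180 siTP63), 53.8% to 66.5% (TE6 siBRDT) and 60.3% to 77.2% (BRDT-OE), and equal upper quartiles moved it to 41.4% in TE6 siBRDT. Signs turned for FAS in KYSE180 siTP63 (0.1413) and for ZMAT3 (-0.0955) and FAS (-0.07205) in TE6 siBRDT cells. MDM2 in TE6 siBRDT cells turned to 0.09555 with equal upper quartiles, 0.08012 with edgeR and 0.09217 with DESeq2.

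In KYSE150 siTP63 cells 0 members were called by limma as reported, 1 without the filter, 2 with the replicate block, 2 with DESeq2 and 5 with the block crossed. Other p53 targets called down there went from 0 to 1 with the block, 4 with DESeq2 and 11 crossed, and up from 0 to 1 with DESeq2 and 5 crossed. Members that differed from KYSE180 went from 0 to 3 and from TE6 from 1 to 3 with the crossed block. Deviations of genes from their group means correlated at -0.70 between same-numbered treated and control libraries in that experiment. Elsewhere this correlation was no more than 0.18, so numbers were not taken to pair libraries. Over all genes the replicate block called 48 down and 89 up there, no filter 18 down and 27 up, and the crossed block 1774 down and 1626 up.

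Leaving out 1 library (in groups of 2, the lone library is assumed to vary like the others) gave 2 to 4 members in KYSE180 siBRDT (4 without siBRDT replicate 2), 1 to 2 in KYSE150 siTP63, 0 to 2 that differed between KYSE150 and KYSE180 (2 without KYSE150 siTP63 replicate 1), 1 to 4 between KYSE150 and TE6 (4 without KYSE150 siTP63 replicate 2), 3 to 5 between TE6 and KYSE180 upon siBRDT and 5 to 8 between the TE6 knockdowns. Other p53 targets ranged from 1 to 2 up in KYSE180 siBRDT, 3 to 7 up in KYSE180 siTP63 (main 8, 3 without siTP63 replicate 2), 4 to 10 down in TE6 siBRDT (10 without siBRDT replicate 2) and 0 to 4 down in KYSE150 siTP63. Values whose sign turned ranged from -0.08009 to 0.1287 (TP53I3, KYSE180 siTP63), -0.4705 to 0.4594 (MDM2), -0.3467 to 0.3576 (ZMAT3) and -0.1236 to 0.1816 (FAS) in TE6 siBRDT, and in KYSE150 siTP63 -0.5164 to 0.02592 (MDM2), -0.2513 to 1.121 (GDF15), -0.3548 to 0.02127 (ZMAT3) and -0.6485 to 0.1179 (FAS).

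Over these settings 592 single-gene values kept direction and call, 17 lost and 31 gained a call, and 17 changed sign. Groups of 2 or 3 libraries and 20 to 32 TP73 reads per KYSE150 control limit precision.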
